A study of Mus musculus with 2 samples.

Results

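Transcripts of 9 genes of the pentose phosphate pathway and of other enzymes that make or use cytosolic NADPH (G6pdx, H6pd, Pgd, Rpia, Tkt, Taldo1, Me1, Idh1 and Dcxr) were examined in the skeletal muscle of RXRγ mice and of control mice without the transgene. The members are the probe sets, groups of short oligonucleotides that together measure 1 transcript, that the platform annotation names for one of these genes. It names 15 of 45101 probe sets for 8 of the 9 genes, and none for G6pdx, which was not analysed here. The RXRγ mice carry an RXRγ transgene under the human α-actin promoter, which drives it in skeletal muscle, and belong to a single transgenic line (4-3). Both genotypes were C57BL6 females at 4 months of age, and the control mice carry no transgene. The RNA of each genotype was pooled and measured on 1 Affymetrix array. The series text gives 5 samples per pool and the extraction protocol 3 animals, and neither names the muscle. Replicate arrays are lacking, so the values carry no error, no difference was tested, and the precision of each difference is limited by there being 1 array on each side.

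The pentose phosphate pathway starts from glucose 6-phosphate, the first product of glucose in the cell. Its oxidative branch makes NADPH, the electron carrier that fatty acid synthesis and the defence against oxidants draw on, and its non-oxidative branch exchanges sugar phosphates with glycolysis and yields ribose phosphate for nucleotides. Cytosolic malic enzyme and cytosolic isocitrate dehydrogenase make NADPH from malate and isocitrate. Resting skeletal muscle is known for low activity of the oxidative branch.

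Among the arrays' 45101 probe sets, 8128 had a signal above 150 in RXRγ mice and 8091 in control mice, and the signal of a probe set is given here in the linear array units that the authors deposited. Rxrg, the gene of the transgene, was at 9172 in RXRγ mice and at 334.5 in control mice. Markers of skeletal muscle were bright on both arrays: the 6 genes listed, among them the creatine kinase gene Ckm (10909 in RXRγ mice and 11776 in control mice), differed by less than 0.4 on the log2 scale. The 5 adipocyte markers with a probe set, which matter here because fat is rich in these enzymes, summed to 6494 in RXRγ mice and 5948 in control mice, and none of the 3 above 250 differed by 0.4 or more. The markers of red blood cells, of endothelium and of liver did not reach 250 on either array, and no gene of the macrophage, fibroblast and Schwann cell lists was called higher or lower. The 5 genes of slow fibres were all lower, and summed to 2238 in RXRγ mice and 9542 in control mice, while the 5 genes of fast fibres summed to 55204 in RXRγ mice and 63054 in control mice. The part of the slow fibre difference in the values below was not tested. In such bulk RNA, fewer cells of a type and less RNA per cell cannot be told apart.

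Each probe set was given the log2 ratio of its signal in RXRγ mice to that in control mice, and these were averaged per gene where the brighter of both signals exceeded 250. A gene was called higher or lower where that mean reached 0.4 on the log2 scale in either direction, the fold that the study's methods use. Of the 9 genes, 7 were measured in this sense, on 12 probe sets. The transcripts of Dcxr, Pgd, Tkt and Idh1 were higher in RXRγ mice, those of Rpia and Me1 were lower, and that of Taldo1 differed by less than the threshold. That is 4 of 7 genes higher, beside 16.8% of all 3780 measured genes, and 2 of 7 lower, beside 20.1%. In either direction the count was 6 of 7, beside 36.9% of all measured genes. Under median scaling 504 of the 3780 genes were higher and 984 lower, in place of 636 and 760. Of the 7 members 3 were then higher and 2 lower. The median log2 ratio was 0.45 over the 7 genes and -0.04 over all measured genes. These counts and medians are descriptions only, because Dcxr and Pgd passed the filter only through the array of RXRγ mice and Rpia only through that of control mice, and such a gene had to differ. Beside the 12 probe sets, 3 named for members (1 each of H6pd, Pgd and Tkt) stayed under 250 on both arrays.

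**Figure D1:**
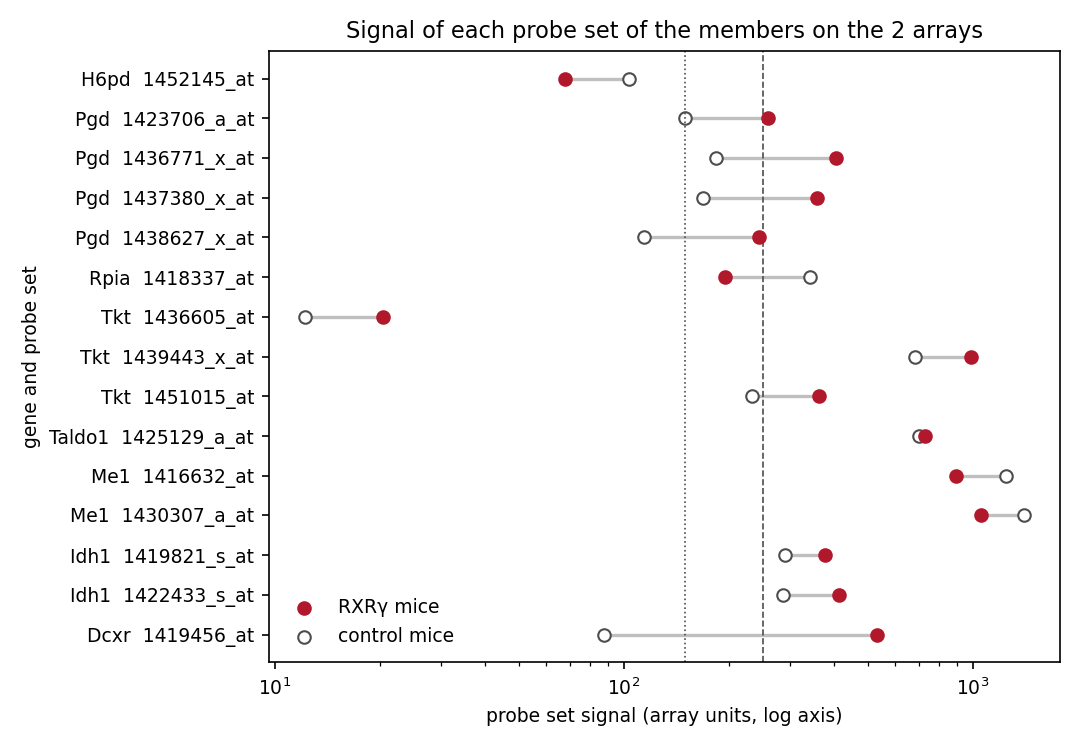
Signal of the 15 probe sets of the members, 1 row per probe set, on a log axis in array units; filled circles are RXRγ mice, open circles control mice, the dashed line marks 250 and the dotted line 150. The longest bar is that of Dcxr (530.1 in RXRγ mice and 87.9 in control mice), the circles of Taldo1 nearly coincide, and the filled circle lies to the left for H6pd, Rpia and both probe sets of Me1.

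The promoters of the 9 genes were read from the RefSeq table of GRCm38.p6, which was matched by symbol and holds 12 windows for them, from 250 bases before to 50 bases after a start site. They are shown for the genes with the highest ratio (Dcxr), the lowest (Rpia) and for the 2 measured genes with a match to a motif searched (Pgd and Me1), each from 150 bases before to 30 bases after the start, 5′ to 3′ on the strand of the gene, which is the minus strand in each. Capitals mark the matched motif. The windows are chr11:120727255-120727434 for Dcxr, chr6:70792146-70792325 for Rpia, chr4:149166053-149166232 for the second of the 2 Pgd starts and chr9:86695885-86696064 for the first of the 2 Me1 starts listed.
Dcxr: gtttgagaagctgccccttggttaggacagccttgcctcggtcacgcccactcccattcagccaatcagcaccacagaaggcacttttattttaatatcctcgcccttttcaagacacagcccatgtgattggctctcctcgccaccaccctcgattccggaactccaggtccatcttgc
Rpia: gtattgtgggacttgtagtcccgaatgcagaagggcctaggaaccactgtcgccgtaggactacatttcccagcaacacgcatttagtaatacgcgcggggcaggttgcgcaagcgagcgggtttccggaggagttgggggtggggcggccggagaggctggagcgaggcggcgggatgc
Pgd: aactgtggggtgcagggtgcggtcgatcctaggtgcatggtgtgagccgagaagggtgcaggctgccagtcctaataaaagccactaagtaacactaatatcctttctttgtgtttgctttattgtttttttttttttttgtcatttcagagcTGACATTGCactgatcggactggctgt
Me1: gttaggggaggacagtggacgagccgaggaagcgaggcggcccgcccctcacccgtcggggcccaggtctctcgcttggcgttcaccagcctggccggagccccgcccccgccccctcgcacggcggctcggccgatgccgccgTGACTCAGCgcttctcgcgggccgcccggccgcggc

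Over both strands of the full windows, the core of the antioxidant response element, TGACNNNGC, occurred in 3 of the 12 windows, those of G6pdx, Pgd and Me1, and in 12.4% of all 32851 windows in the table. The hexamer AGGTCA, which nuclear receptors bind, occurred in 1 of the 12, that of H6pd, and in 16.3% of all windows. A pair of such hexamers 1 base apart, the arrangement known as DR1 that PPAR and RXR bind together, occurred in none of the 12 and in 0.0396% of all windows. The SREBP element TCACNCCAC was in none of the 12 and in 1.24% of all windows, and the E-box CACGTG in none and in 7.15%. Exact matches to DR1 and the SREBP element are so rare that none was to be expected among 12 windows. Their absence therefore says nothing about looser or more distant sites. The hexamer can lie within the pair, and no other motifs of this set contain each other. The match of Pgd (log2 ratio 1.0) and that of Me1 (log2 ratio -0.44) belong to genes that went opposite ways. Counted from the start site, the first base of the match lay at -57 in G6pdx, -6 in Me1 and 4 in Pgd. The match of Pgd thus lies downstream of the start, and the other window of Pgd has no match. This start directly follows a run of T and the bases CAG, as an internal exon does, and the bases of the match can be read as codons. The match of Pgd may therefore be coding sequence and no promoter element.

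In the oxidative branch, Pgd was the gene that was measured. Pgd encodes phosphogluconate dehydrogenase, the second enzyme of the branch that reduces NADP. Its 3 probe sets above 250 had signals of 405.6, 357.0 and 259.6 in RXRγ mice, against 184.3, 168.6 and 150.1 in control mice. Each of the 3 passed the filter only through the array of RXRγ mice, and so had to be higher there. The mean log2 ratio was 1.0 (2.0-fold higher), with 1.14, 1.08 and 0.79 at the single probe sets. The fourth probe set was at 243.5 in RXRγ mice and 114.4 in control mice, just under the filter, with a log2 ratio of 1.09. All 3 probe sets with the larger ratios have names ending in _x_at, a class that can also bind other transcripts, and the one at 0.79 has the ending _a_at.
H6pd, which encodes the enzyme that starts the same branch inside the endoplasmic reticulum, has a single probe set, which read 67.8 in RXRγ mice and 103.7 in control mice. Both are under 150, too low for a fold.

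In the non-oxidative branch the 3 genes went 3 ways. Rpia encodes ribose phosphate isomerase, which makes ribose phosphate from the product of the oxidative branch. Its signal was 195.4 in RXRγ mice and 342.4 in control mice at its single probe set, a log2 ratio of -0.81 (1.75-fold lower). Of the 3780 measured genes, 6.75% had a lower ratio, but Rpia passed the filter only through the array of control mice. Tkt encodes transketolase, which moves carbon units between the sugar phosphates and links the pathway to glycolysis. Its probe sets had signals of 990.3 and 363.4 in RXRγ mice, against 683.1 and 233.6 in control mice. Both were higher in RXRγ mice, by 0.54 and 0.64 on the log2 scale, with a mean of 0.59 (1.5-fold). The dimmer of these passed the filter only through the array of RXRγ mice. Another probe set of Tkt was at 20.5 in RXRγ mice and 12.2 in control mice, too low for a fold. Taldo1 encodes transaldolase, the partner of transketolase in these exchanges. Its signal was 730.3 in RXRγ mice and 701.8 in control mice, and its log2 ratio of 0.06 was close to the median of all genes.

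The 2 genes that make cytosolic NADPH outside the pathway went opposite ways. Me1, cytosolic malic enzyme, was lower at both of its probe sets, with signals of 1054.7 and 893.4 in RXRγ mice, against 1398.9 and 1244.4 in control mice. Its mean log2 ratio was -0.44 (1.36-fold lower), close to the threshold, and under quantile normalization and intensity-dependent centring it was -0.40 and -0.39, too small to be called. Idh1, cytosolic isocitrate dehydrogenase, had signals of 413.9 and 376.5 in RXRγ mice, against 286.4 and 289.8 in control mice. The log2 ratios of 0.53 and 0.38 gave a mean of 0.45 (1.37-fold higher), which median scaling brought down to 0.36, under the threshold. Both probe sets of Idh1 have names ending in _s_at, a class shared by more than one transcript.

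Dcxr had the largest ratio of the set. It encodes dicarbonyl and L-xylulose reductase, an enzyme of the glucuronate route that uses NADPH and whose product can be passed on to the pentose phosphate pathway as xylulose phosphate. The signal of its single probe set was 530.1 in RXRγ mice and 87.9 in control mice. Since the signal in control mice was under 150, the difference is a lower bound, at least 3.53-fold higher (a log2 ratio of 1.82 with a floor of 150). The signals as given yield a log2 ratio of 2.59, which cannot be read exactly.

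The log2 ratios of the measured probe sets spanned 0.35 in Pgd, 0.15 in Idh1, 0.10 in Tkt and 0.07 in Me1, beside a median span of 0.20 over the 1213 genes with more than 1. The spans of Pgd and Idh1 were larger than the gap between the means of Tkt and Idh1, and the 2 probe sets of Idh1 fell on either side of 0.4. This spread is between probe sets on the same pair of arrays and is no replicate error.

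**Figure D2:**
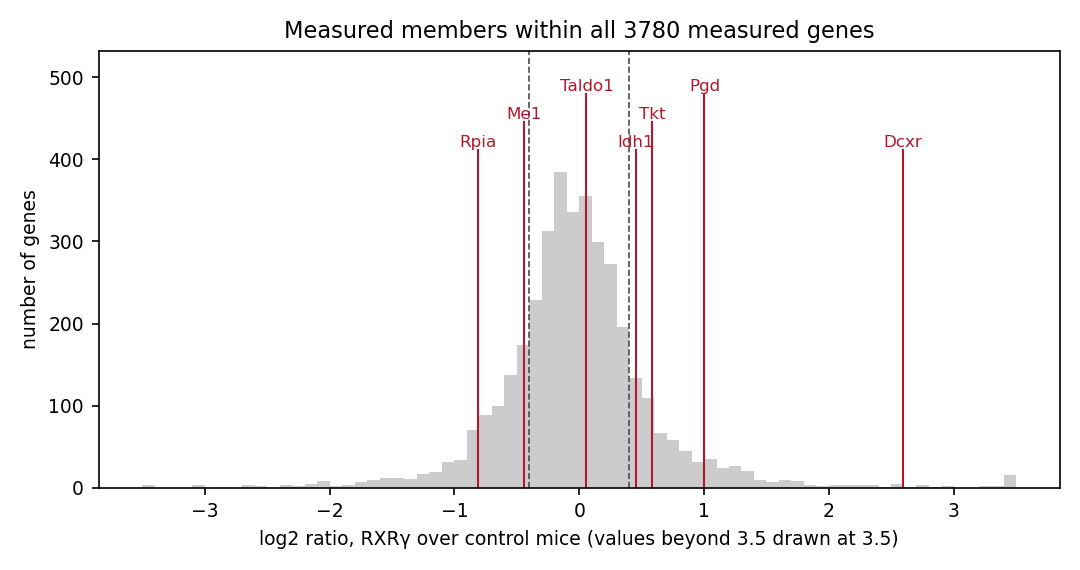
Number of measured genes by log2 ratio of RXRγ over control mice (3780 genes, values beyond 3.5 drawn at 3.5), with red lines at the 7 measured members and dashed lines at 0.4 in either direction. Dcxr (2.59, from a control signal under 150) lies in the far right tail, Rpia (-0.81) in the left shoulder and Taldo1 (0.06) near the peak.

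Further genes in or beside the pathway were mostly too dim to measure. Of 13 listed, 4 were measured: Prps1, Prps1l3, Tigar and Pgm1, which act beside the pathway and catalyse none of its own steps. None was higher and 3 were lower, beside 16.8% and 20.1% of all measured genes. Their median log2 ratio was -0.97. Without the filter on dim signals 1 of the 13 was higher and 6 lower (median -0.29), beside 28.6% and 22.6% of all genes. With more than 250 required on both arrays 2 were left, none higher and 1 lower (median -0.56), beside 12.1% and 16.4% of all genes. Prps1, a phosphoribosyl pyrophosphate synthetase, uses the ribose phosphate that Rpia yields to start nucleotide synthesis. Its signal was 311.9 in RXRγ mice and 537.6 in control mice (log2 ratio -0.79). Prps1l3, a close relative of Prps1 whose probes may also detect it, had 186.1 and 151.6 in RXRγ mice, against 458.4 and 302.3 in control mice (mean log2 ratio -1.15). Tigar encodes a phosphatase that lowers fructose bisphosphate and so favours the pentose phosphate pathway. Its 2 measured probe sets were at 114.3 and 117.4 in RXRγ mice, against 285.4 and 332.0 in control mice. As both lay under 150 in RXRγ mice, Tigar was at least 1.90-fold lower at the first and at least 2.21-fold lower at the second. Another probe set of Tigar, under the filter, was at 172.2 in RXRγ mice and 240.9 in control mice (log2 ratio -0.48). Pgm1, which interconverts glucose phosphates, had 2906 in RXRγ mice and 3689 in control mice, and its log2 ratio of -0.34 passed the threshold under median scaling. The lactonase gene Pgls, between the 2 oxidative steps, stayed under 150 (129.0 in RXRγ mice and 140.3 in control mice). The 9 genes not measured were under 250 on both arrays. Rpia and Prps1, which act in sequence toward nucleotides, were lower, while Pgd and Tkt were higher. Rpia, Prps1l3 and Tigar passed the filter only through the array of control mice, and Pgd only through that of RXRγ mice. Once measured, Rpia, Prps1l3, Tigar and Pgd therefore had to differ in the direction seen. Prps1 and the brighter probe set of Tkt exceeded 250 on both arrays.

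A further list held 12 genes, enzymes that make NADPH elsewhere in the cell, most of them in mitochondria, and the NAD kinases Nadk and Nadk2, which make its precursor NADP from NAD. Of these 7 were measured, 1 was higher and 4 were lower, beside 16.8% and 20.1% of all measured genes. The median log2 ratio was -0.46, which is the value of Nadk2, 1 of the 4 lower genes. Without the filter on dim signals 2 of the 12 were higher and 5 lower (median -0.02), beside 28.6% and 22.6% of all genes. With more than 250 required on both arrays 5 were left, 1 higher and 3 lower, beside 12.1% and 16.4% of all genes. Idh2, the mitochondrial counterpart of Idh1, read 304.9 in RXRγ mice and 1224.4 in control mice, a log2 ratio of -2.01 (4.02-fold lower). Idh1 and Idh2 thus differed in direction on the same 2 arrays. Me3, a mitochondrial malic enzyme, was lower like Me1, at 251.9 in RXRγ mice and 389.0 in control mice (log2 ratio -0.63). Mthfd1, a cytosolic enzyme of folate metabolism that makes NADPH, had 159.4 in RXRγ mice and 264.0 in control mice (log2 ratio -0.73). The higher gene was Glud1, mitochondrial glutamate dehydrogenase, with 1013.9 and 992.8 in RXRγ mice, against 697.4 and 699.9 in control mice (mean log2 ratio 0.52). Nnt, the transhydrogenase of the inner mitochondrial membrane, had a log2 ratio of -0.19. The slow fibre genes, which were lower in the same RNA, were given above, and their part in the difference of Idh2 was not tested.

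The NAD-linked relatives of Idh1 and Me1 and the carriers of the malate shuttle were closer together. Of 9 genes listed, 8 were measured (median log2 ratio -0.11). Of these 1 was higher and none lower, beside 16.8% and 20.1% of all measured genes. Under median scaling 2 were lower, Got1 and Mdh2, beside 26.0% of all measured genes. Their log2 ratios were -0.39 and -0.37 without that scaling. The 3 subunits of NAD-linked isocitrate dehydrogenase, Idh3a, Idh3b and Idh3g, had log2 ratios of -0.25, 0.07 and 0.25. Got2, the mitochondrial aspartate aminotransferase, was the higher gene, at 4529.4 and 1717.9 in RXRγ mice, against 2757.8 and 1016.2 in control mice (mean log2 ratio 0.74).

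In the glucuronate route beside Dcxr, 3 of 8 listed genes were measured. Of these 1 was higher and none lower, beside 16.8% and 20.1% of all measured genes. With more than 250 required on both arrays 2 were left, and neither was higher or lower, beside 12.1% and 16.4% of all genes. Cryl1, which encodes gulonate dehydrogenase, the enzyme known to act before Dcxr in this route, was higher. Its 2 measured probe sets were at 482.8 and 262.3 in RXRγ mice, against 49.9 and 26.6 in control mice. Both signals of control mice were under 150, and Cryl1 was at least 3.22-fold higher at the first and at least 1.75-fold higher at the second. Of its other probe sets, one had 33.8 in RXRγ mice and 4.9 in control mice and the other 24.2 in RXRγ mice and 30.3 in control mice, all too low for a fold. The gene upstream, Akr1a1, which reduces glucuronate, had a log2 ratio of 0.17, and Ugp2, which makes the glucose nucleotide that feeds the route, had one of 0.13. The xylulokinase gene Xylb, whose product would pass xylulose on to the pentose phosphate pathway, was at 3.3 in RXRγ mice and 1.6 in control mice, both too low for a fold.

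**Figure D3:**
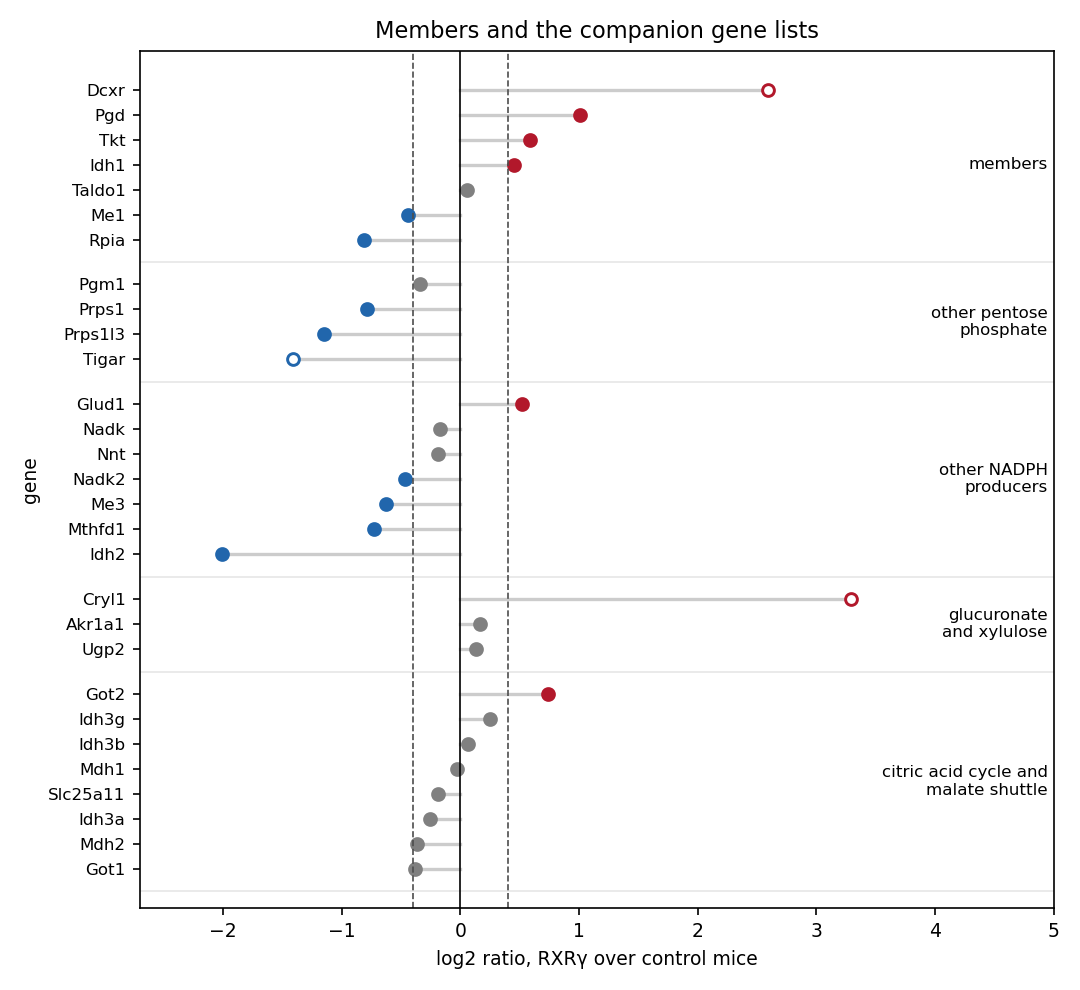
RXRγ over control mice on the log2 scale, for the 7 measured members and the measured genes of 4 companion lists, 1 point per gene; red marks genes called higher, blue genes called lower, grey genes within the dashed lines at 0.4, and open circles rest on a signal under 150 on 1 array. Dcxr and Cryl1 stand far to the right, and Idh2 (-2.01) lies furthest to the left.

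One of the genes next to Dcxr in the RefSeq order on chromosome 11 is Cbr2, which encodes a carbonyl reductase of the same enzyme family. Its signal was 2464.1 in RXRγ mice and 130.2 in control mice, at least 16.4-fold higher. Whether the probes of Dcxr and Cbr2 detect each other's transcript was not tested. The other measured neighbour of Dcxr within 5 genes on each side, Gps1, had a log2 ratio of 0.29. Around all 9 members, 12 of the 90 nearest protein-coding genes were measured, 4 were higher and 1 was lower, beside 16.8% and 20.1% of all measured genes. The lower one was the kinesin gene Kif1b, next to Pgd on one side (log2 ratio -0.73), while the gene on its other side was not measured. Neighbours were looked at after the values of the members were known.

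**Figure D4:**
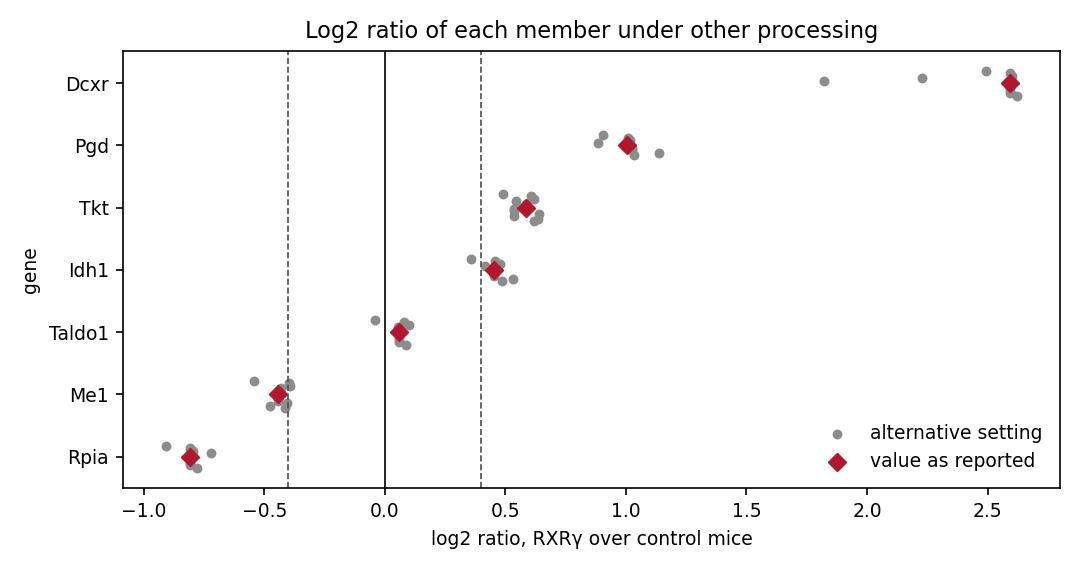
RXRγ over control mice on the log2 scale for each of the 7 members measured, with red diamonds for the values reported and grey points for the same gene under each alternative scaling, filter, floor, pseudocount or choice of probe sets; dashed lines mark 0.4. No point of Dcxr, Pgd, Tkt or Rpia crosses a dashed line, and 1 point of Idh1 and 2 of Me1 do.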

How the data were processed

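Skeletal muscle RNA of female RXRγ mice and of control mice, pooled within each genotype, was hybridized to 1 Affymetrix array per genotype. The deposited intensity values are probe set signals that the authors made with the Affymetrix software, which compares matched with mismatched oligonucleotides; they are linear, with a mean of 100.0 on each array once the top and bottom 2% are left out. The sources used here do not name the scaling algorithm, and present calls were not analysed here.

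The platform annotation names 1 gene for 34958 probe sets, several for 932 and none for 9211; the last 2 kinds were not used. Log2 ratios were computed without a pseudocount on probe sets whose brighter signal exceeded 250 and averaged per gene. The genes called differ by at least 0.4. Where the dimmer signal was under 150, a lower bound against 150 is given. No p-value was computed, since each genotype has 1 array.

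The named genes are all 9 members and, from each companion list, a selection that does not strictly follow brightness or size of change. Mdh1 (log2 ratio -0.03) and Mlxipl (0.09), for example, are not named above although genes dimmer than these are. Nadk, Nadk2, Pgls, Xylb, Nqo1, Got1 and Mdh2 were added after their values were seen. Members, lists and motifs were chosen with earlier results of these data known. The calling step was tested on simulated data. Alternatives were median scaling, quantile normalization and loess centring (limma 3.58.1, R 4.3.3), 32 added to each signal as a pseudocount, signals raised to 150, filters at 150, 500, 250 on both arrays or none, the brightest probe set, leaving out probe sets ending in _x_at, _s_at or _a_at, and a threshold of 1; centring on the median of probe sets above 150 on both arrays was added after the data were seen. A log2 ratio counted as moved when its fold changed by at least 1.5 times. Python 3.11.15 with pandas 2.3.3, numpy 2.4.6, scipy 1.17.1 and matplotlib 3.10.9 was used.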

Additional observations from a re-analysis of the deposited data

How the results depend on the processing

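Over the settings tried, 75 log2 ratios of the 7 measured members were recomputed; none of a member called higher or lower changed sign, and 74 of the 75 kept their fold within 1.5 times; the exception was Dcxr with a floor of 150 (1.82 in place of 2.59), because its control signal is raised to the floor. Many of these values could not change, because a filter, the floor or the choice of probe set left the same probe sets and signals. Median scaling and centring on a median shift every log2 ratio by a constant too small to count as moved. The count is therefore no measure of robustness. The log2 ratio of Taldo1, which was not called, ran from -0.04 to 0.10. Requiring more than 250 on both arrays, or more than 500 on the brighter one, left 4 members each, with 2 higher and 1 lower in both cases. Without probe sets ending in _x_at, _s_at or _a_at, 4 members were left and 2 were higher, since Pgd, Idh1 and Taldo1 have no others above 250. At a threshold of 1, Dcxr and Pgd were the 2 higher members and 0 were lower. Under quantile normalization and under loess centring 1 member was lower, beside 19.2% and 18.5% of all measured genes. Without a filter 3 were lower, beside 22.6% of all genes, with H6pd added, whose signals are too low for a fold. The median over the measured members ran from 0.08, without those probe sets, to 0.53 with the brightest probe set of each gene. Over all genes, 982 of 5359 (18.3%) were higher with a filter at 150. At 500, 340 of 2067 were higher (16.4%) and 438 lower (21.2%). With 250 on both arrays, 371 of 3055 were higher (12.1%) and 501 lower (16.4%). Without a filter, 5208 of 18194 were higher (28.6%) and 4114 lower (22.6%). Without probe sets ending in _x_at, _s_at or _a_at, 16.2% of 2798 were higher and 22.1% lower. At a threshold of 1, 191 of 3780 were higher (5.05%) and 155 lower (4.10%). No paired analysis was possible because each genotype has 1 array. Signals under 150 give bounds only, which limits Dcxr, Cryl1, Tigar, Cbr2 and Nos1 among the genes named, and the gap between genotypes cannot be set against a spread between animals.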

Other observations

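Enzymes that use NADPH went both ways. Of 19 listed genes of reduction and oxidant handling, 6 were measured (median log2 ratio 0.21). In RXRγ mice 2 of these were higher and 1 lower, beside 16.8% and 20.1% of all measured genes. With more than 250 required on both arrays 4 were left, 1 higher and none lower, beside 12.1% and 16.4% of all genes. Beside Cbr2, the higher gene was Cat, which encodes catalase, an enzyme that binds NADPH and breaks down hydrogen peroxide. Its probe sets had signals of 1971.4 and 1836.8 in RXRγ mice, against 935.1 and 977.4 in control mice (mean log2 ratio 0.99). The lower gene was Nos1, the neuronal nitric oxide synthase of muscle. Its 2 measured probe sets were at 74.0 and 68.8 in RXRγ mice, against 369.6 and 446.8 in control mice. Nos1 was thus at least 2.46-fold lower at the first and at least 2.98-fold lower at the second. Txnrd1, thioredoxin reductase, had a log2 ratio of 0.25. Of 10 listed genes of lipid synthesis that use NADPH, 2 were measured, 1 higher and 1 lower, beside the same shares of all measured genes. Fatty acid synthase (Fasn) was higher (log2 ratio 1.26). Tecr, a reductase of very long chain fatty acid synthesis, was lower, at 2844.0 and 924.8 in RXRγ mice, against 4045.7 and 1252.3 in control mice.

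Of 12 genes listed as regulators for this set, 6 were measured. Of these 2 were higher and 1 lower, beside 16.8% and 20.1% of all measured genes. Nfe2l2, the factor that binds the antioxidant response element, had a log2 ratio of 0.16, and its partner Keap1 one of -0.21, while its target Nqo1 stayed under 150 (94.8 in RXRγ mice and 118.4 in control mice). Mlxip, a glucose-responsive factor, was lower (log2 ratio -0.77). Srebf1 and Thrsp, both of lipogenesis, were the 2 higher genes, with log2 ratios of 1.80 and 2.67. Srebf1 passed the filter only through the array of RXRγ mice (867.3, against 249.9 in control mice). Without a filter the log2 ratio of Thrsp was 1.0, and it was not called, because a dim probe set went the other way.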
